A study of Homo sapiens with 6 samples.

Results

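The 3 wild-type (WT) libraries among the 6 RNA-seq libraries of the series were taken by their genotype label, and the transcriptome that they share is described here together with the differences among them. Each library came from its own cell line of HaCaT, a human keratinocyte line that immortalized spontaneously and is not tumorigenic. The lines were labelled WT and grew in high-glucose DMEM with 10% FBS, and no added growth factor, cytokine or ligand is named for them. The study compared them with *FGFR2* knockout (KO) HaCaT lines, whose 3 libraries were not used for the results given here. In the study, WT lines were either the starting cell population or clones grown from sorted single cells, and its account of the sequenced lines calls them clonally expanded. The labels do not say which line is which replicate, and the study's methods describe confluent cultures for RNA work in general, without naming the sequenced ones. With 1 library per line, the line, the culture and the library preparation cannot be told apart, and no difference between lines has a replicate check or a p-value.

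Keratinocytes form the stratified epithelium of the skin. Basal cells, attached to the basement membrane, divide and make the keratins 5 and 14. Cells that leave the basal layer stop dividing, switch to keratins 1 and 10, and later build the cornified envelope from crosslinked proteins such as involucrin, loricrin and the small proline-rich proteins. Other stratified epithelia, such as those of the mouth and oesophagus, use keratins 4 and 13 above the basal layer, and single-layered epithelia use keratins 7, 8, 18 and 19.

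Levels are given in FPKM, fragments scaled to gene length and sequencing depth, which allow genes of different length to be compared, and 3 values in a row are those of WT replicates 1, 2 and 3. The depth estimated from the steps between low values was 81300000, 67900000 and 71600000 fragments, so that 1 FPKM of a gene of 1 kb stood for 81.3, 67.9 and 71.6 fragments. A count of 0 on such a gene allows up to 0.0369, 0.0442 and 0.0419 FPKM, by counting error alone. In what follows, a gene is called expressed when it reached 1 FPKM in each of the 3 libraries. By this measure 51.4% of all genes were expressed, the share against which counts of list members stand.

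The label keratinocyte was checked first against 5 markers, and all were expressed. *KRT5* (ENSG00000186081, chromosome 12, 52514575 to 52520530 in GRCh38) was at 7544, 6086 and 10050.1 FPKM, a mean of 7894 ± 2005 FPKM (SD, n = 3). Its partner *KRT14* (ENSG00000186847, chromosome 17, 41582279 to 41586895) was at 4723, 2793 and 4857 FPKM. They ranked 12, 12 and 8 and 16, 23 and 15 among the 21475 genes of the libraries, and replicate 2 was lowest for both. *EGFR* (ENSG00000146648, chromosome 7, 55019017 to 55211628), the receptor of the epidermal growth factor family, was at 198, 215 and 209.7 FPKM, a mean of 207 ± 8.52 FPKM (SD, n = 3), and the lines lay within 1.08-fold of each other. *FGFR3* (ENSG00000068078, chromosome 4, 1793293 to 1808872) was at 47, 76 and 53.7 FPKM and *FGFR2* (ENSG00000066468, chromosome 10, 121478332 to 121598458) at 21.6, 39.7 and 15 FPKM. Replicate 2 was highest for both FGF receptors, and the lines were 2.65-fold apart for *FGFR2* and 1.62-fold apart for *FGFR3*.

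Of the 21475 genes, 11029 (51.4%) were expressed, 841 reached 1 FPKM in some but not all libraries, 7134 (33.2%) stayed under 0.1 FPKM in every library and 3459 (16.1%) were listed at 0 in every library. At the other end, 869 genes reached 100 FPKM and 52 reached 1000 FPKM in each library. The 13 protein genes of the mitochondrial genome made up 27.6%, 21.5% and 22.2% of the summed FPKM, with replicate 1 highest for all 13 of them in the FPKM as deposited. *MT-CO2*, a subunit of cytochrome c oxidase, was the highest gene of all at 35856, 29932 and 33322 FPKM. *MT-ATP6* and *MT-ATP8* overlap on the mitochondrial genome, so the split of reads between them is uncertain.

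The highest nuclear genes encoded keratins, parts of the translation machinery and glycolytic enzymes in the main. *FTH1*, the heavy chain of the iron store ferritin, had the highest nuclear mean of the named genes with 8231 ± 1082 FPKM (SD, n = 3), followed by *KRT5*, *KRT13* with 7656 ± 3097 FPKM (SD, n = 3) and *KRT14*. Of the 20 highest named nuclear genes, 7 were keratins (*KRT5*, *KRT13*, *KRT14*, *KRT15*, *KRT6A*, *KRT1* and *KRT4*) and 5 encoded cytosolic ribosomal proteins. The others included the elongation factors *EEF1A1* at 3467 and *EEF2* at 2776 FPKM, the glycolytic enzymes *GAPDH* at 3262 and *PKM* at 3127 FPKM, the calcium-binding protein *S100A11* at 1879 FPKM, *TRIM29* at 2247 FPKM and the serpin *SERPINB5* (maspin) at 1749.6 FPKM, all as means. The 55 keratin genes together held 4.45%, 4.71% and 4.91% of the summed FPKM, and the 79 ribosomal protein genes 6.56%, 8.19% and 7.71%. A gene without an entry in the annotation used here, ENSG00000269028, stood among these genes at 10293, 11430 and 7285 FPKM, and its identity was not resolved.

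**Figure D1:**
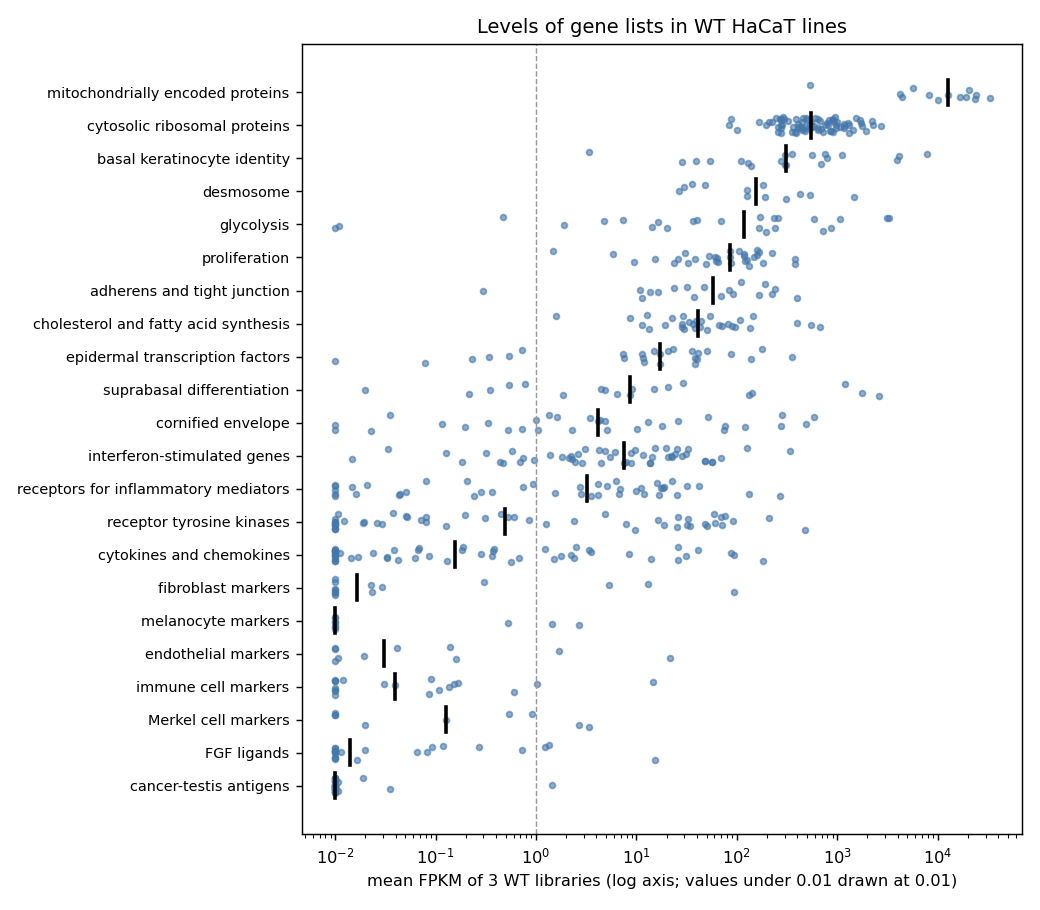
Mean FPKM of the 3 WT libraries (log axis, values under 0.01 drawn at 0.01) for each member (points) of 22 gene lists, with the median of each list (black bar) and the level of 1 FPKM (dashed line). Basal keratinocyte genes lie around a median of 308.0 FPKM, and the markers of fibroblasts, melanocytes, endothelial cells, immune cells and Merkel cells have medians under 0.2 FPKM.

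The comparison of lines took the 12218 genes whose mean reached 0.5 FPKM, on log2(FPKM + 0.5), which understates the folds of low genes. The median gene differed 1.30-fold between its highest and its lowest line, with a coefficient of variation of 14.7%. The highest and lowest lines were at least 2-fold apart for 1298 genes, or 10.6%, and at least 4-fold apart for 282, or 2.31%. The first count was 261 without replicate 2, 643 without replicate 3 and 1183 without replicate 1. Replicates 1 and 3 were the nearest pair, with 257 genes (2.1%) at least 2-fold apart, of which 159 (1.3%) were higher and 98 (0.802%) lower in replicate 3, and an SD of the log2 differences of 0.35. Replicates 1 and 2 differed at least 2-fold for 627 genes (5.13%), with an SD of 0.52. Of these, 420 (3.44%) were higher and 207 (1.69%) lower in replicate 2, which is 67.0% higher, against 53.9% of 588 genes after quantile normalization. Replicates 2 and 3 were farthest apart, with 1149 genes (9.4%) and an SD of 0.67, of which 484 (3.96%) were higher and 665 (5.44%) lower in replicate 3. Across the 12218 genes, Pearson's r of the log2 levels was 0.986, 0.969 and 0.949 for these pairs, as a description, since genes are not independent replicates and each library enters 2 of these values.

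Replicate 1 lay between the other lines for most of the genes that varied. Among the 1298 genes, replicate 1 had the middle value for 1002 (77.2%), replicate 3 for 235 (18.1%) and replicate 2 for 61 (4.70%), against 52.0%, 29.4% and 18.6% of all 12218 genes. The highest value belonged to replicate 2 for 737 of them (56.8%) and to replicate 3 for 475 (36.6%), and the lowest to replicate 3 for 588 (45.3%) and to replicate 2 for 500 (38.5%). Over all 12218 genes, replicates 1, 2 and 3 were highest for 14.3%, 46.3% and 39.4%, and lowest for 33.7%, 35.1% and 31.2%. Against the mean of the other lines on the log2 scale, replicate 2 was at least 2-fold higher for 495 genes (4.05%) and lower for 318 (2.6%). Replicate 3 was at least 2-fold higher for 261 (2.14%) and lower for 290 (2.37%), and replicate 1 for 50 (0.409%) and 116 (0.949%).

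The basal program was expressed throughout. All 20 genes of the basal keratinocyte list were expressed, 16 of them with a mean of 100 FPKM or more, and the median of the list was 308 FPKM against 1.97 FPKM for all genes of the libraries. Besides the keratins, the hyaluronan receptor *CD44* was at 1156, 1084 and 1116 FPKM, and the 14-3-3 protein *SFN* was at 769.6, 682 and 907 FPKM. Genes of the hemidesmosome, which anchors basal cells, were high, with the collagen *COL17A1* at 811, 568 and 905 FPKM and the integrin chains *ITGA6* at 741, 464 and 846 FPKM and *ITGB4* at 398, 361 and 298 FPKM. *TP63*, the master transcription factor of stratified epithelia, was at 155, 119.5 and 141 FPKM. The lowest member was the Notch ligand *DLL1* at 2.92, 3.28 and 3.97 FPKM.

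Basal genes did not stand out from all genes in how far apart the lines were. The only member at least 2-fold apart was *KRT15*, a keratin of basal cells. This is 1 of 20 members, near the 10.6% of all genes for so short a list. It was at 4432, 5188 and 2200.2 FPKM, lowest in replicate 3, 2.18-fold below the mean of the others. The members varied by a median of 0.45 on the log2 scale between lines, against 0.38 for all genes.

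*KRT5*, *KRT4* and *KRT10* stand for the basal, the mucosal and the suprabasal keratins, and replicate 2 was highest for *KRT4* but lowest for *KRT5* and *KRT10*. The 100 bases before the transcription start of each are shown, from RefSeq on GRCh38.p14, 5′ to 3′ on the strand of the gene, which is the minus strand for all 3. They lie at chr12:52520395-52520494 for *KRT5*, chr12:52814117-52814216 for *KRT4* and chr17:40822615-40822714 for *KRT10*. The *KRT5* window lies inside the gene as positioned above, which reaches 52520530, so the 2 annotations place its start differently. Capitals mark matches to the letters TATAA, searched on both strands (TTATA on the reverse).
KRT5: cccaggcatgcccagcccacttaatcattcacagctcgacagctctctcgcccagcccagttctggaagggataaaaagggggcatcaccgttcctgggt
KRT4: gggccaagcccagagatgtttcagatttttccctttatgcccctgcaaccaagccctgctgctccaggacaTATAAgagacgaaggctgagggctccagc
KRT10: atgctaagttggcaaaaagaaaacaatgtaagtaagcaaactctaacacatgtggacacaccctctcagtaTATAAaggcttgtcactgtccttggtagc
*KRT4* and *KRT10* each hold 1 match, 29 bases before the start, and *KRT5* holds none, which says only that these letters are not in its window. Of the 35116 promoters in the table, 3161 (9.0%) hold the letters in the same window.

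The lines also expressed keratins that normal epidermis keeps to other layers or leaves to other epithelia. The mucosal keratin *KRT13* was at 7358, 10891 and 4718 FPKM, and its partner *KRT4* at 1439, 4412 and 932 FPKM, 3.81-fold above the mean of the others in replicate 2. The keratins of simple epithelia followed, with *KRT19* at 1141, 1512 and 893 FPKM, *KRT7* at 828, 1419 and 595 FPKM, *KRT8* at 541, 799.8 and 514 FPKM and *KRT18* at 103, 133 and 133 FPKM. Of the 10 genes of the list of simple-epithelial and mucosal keratins whose mean reached 0.5 FPKM, 9 were highest in replicate 2, against 46.3% of all genes, and 5 were at least 2-fold apart between lines, against 10.6%. *KRT20*, a keratin of intestinal and Merkel cells, was at 0.804, 6.09 and 1.11 FPKM, with replicates 1 and 3 near 1 FPKM and replicate 2 above them.

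Keratins that mark wounded or activated epidermis showed the opposite order. *KRT6A* was at 2534, 1082 and 4475 FPKM, *KRT17* at 686, 569 and 761 FPKM and *KRT16* at 99.4, 32.2 and 97.7 FPKM. All 5 genes of this list were lowest in replicate 2, and 4 were highest in replicate 3, against 35.1% and 39.4% of all genes. *KRT6A*, *KRT6B* and *KRT6C* are near-identical copies, so the split of reads among them is uncertain. Their summed level follows *KRT6A*, since *KRT6B* was at 0.737, 0.403 and 4.44 FPKM and *KRT6C* at 1.13, 0.311 and 2.15 FPKM.

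Suprabasal genes were present at levels that spread over several orders of magnitude, and they set the lines apart more than the basal genes did. Of 19 genes, 11 were expressed, against 51.4% of all genes, with a median of 8.58 FPKM. *KRT1* was at 2254, 435 and 5121 FPKM, ranks 25, 181 and 14, and its partner *KRT10* at 956, 607 and 2056 FPKM. Replicate 3 was highest for both and replicate 2 lowest, with an 11.8-fold gap for *KRT1*. In bulk RNA, fewer cells that express a gene and less RNA of it per cell cannot be told apart, so these values do not say how many cells of each line had entered differentiation.

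Of the 16 suprabasal genes whose mean reached 0.5 FPKM, 11 were at least 2-fold apart between lines, against 10.6% of all genes. Replicate 3 was at least 2-fold above the others for 10 (2.14% of all genes), and replicate 2 at least 2-fold below for 8 (2.6% of all genes). The median difference of each line from the others was -0.37, -0.95 and 1.24 on the log2 scale, against -0.07, 0.05 and 0.02 for all genes. *DSG1*, the desmosomal cadherin of the upper layers, was at 14.4, 2.1 and 45.9 FPKM, 7.43-fold above the others in replicate 3 and 10.1-fold below in replicate 2. The secreted differentiation proteins *KRTDAP*, at 3.06, 0.357 and 16 FPKM, and *SBSN*, at 1.62, 0.139 and 12.7 FPKM, were in the same order. *SERPINB5*, by contrast, was at 1561, 1775 and 1913 FPKM, and differed little.

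Genes of the cornified envelope were expressed at about the share of all genes. Of 31 genes, 16 were expressed, near the 51.4% of all genes. In every library 4 stayed under 0.1 FPKM, against 33.2% of all genes, and the median was 4.16 FPKM. The early envelope proteins were high, with annexin *ANXA1* at 544, 431 and 788 FPKM, the small proline-rich protein *SPRR1B* at 361, 113 and 1001 FPKM, involucrin (*IVL*) at 338, 324 and 180.3 FPKM and periplakin (*PPL*) at 270.1, 249.9 and 316 FPKM. Transglutaminase 1 (*TGM1*), which crosslinks them, was at 61.6, 54.5 and 106 FPKM, and filaggrin (*FLG*), the filament-aggregating protein of the granular layer, at 56.1, 35.9 and 62.9 FPKM. *LORICRIN*, the main protein of the mature envelope, stayed at 0.405, 0.189 and 0.415 FPKM, and *LCE3A* was listed at 0 in every library.

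Between lines, 12 of the 24 envelope genes whose mean reached 0.5 FPKM were at least 2-fold apart, and 10 of them at least 4-fold, against 10.6% and 2.31% of all genes. Replicate 3 was highest for 18 of the 24 and replicate 2 lowest for 16, against 39.4% and 35.1% of all genes. *SPRR1B* in replicate 3 lay 4.95-fold above the others and in replicate 2 5.31-fold below. *ALOX12B*, a lipoxygenase that the skin barrier needs, was at 18.4, 4.78 and 54.1 FPKM. The order was not shared by all: *IVL* was lowest in replicate 3, 1.83-fold below the others, and so was *CASP14*, a protease of cornification, at 27.4, 19.4 and 7.73 FPKM.

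Proteases and inhibitors of the epidermal surface were highest in replicate 3 for 24 of the 35 genes compared, against 39.4% of all genes. Of 39 genes, 31 were expressed, against 51.4% of all genes. Of the 35 compared, 17 (48.6%) were at least 2-fold apart between lines, against 10.6% of all genes. Elafin (*PI3*), an elastase inhibitor, was at 25.1, 6.58 and 128 FPKM, 9.55-fold above the others in replicate 3, and *SLPI*, another such inhibitor, at 67.9, 82.9 and 184 FPKM. The kallikreins that cut the junctions between corneocytes, *KLK5* at 131, 96.2 and 202 FPKM and *KLK7* at 28.4, 13.6 and 45.5 FPKM, were lowest in replicate 2 and highest in replicate 3. The metalloprotease inhibitor *TIMP3* went the other way, at 24.4, 83.9 and 12.6 FPKM, with replicate 2 highest. *SERPINB3*, at 41.8, 14.4 and 60.9 FPKM, and *SERPINB4*, at 20.6, 5.01 and 40.0 FPKM, are close copies and were lowest in replicate 2 as well.

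Cell-cell junctions were expressed almost in full. All 12 desmosome genes were expressed, with a median of 155 FPKM, led by plakoglobin (*JUP*) at 1666, 1256 and 1454 FPKM, plakophilin 1 (*PKP1*) at 517, 411 and 692 FPKM and *PKP3* at 369, 453 and 464 FPKM. Desmoplakin (*DSP*), which ties the desmosome to keratin filaments, was at 300.1, 202 and 418 FPKM. Of the 12, 10 were lowest in replicate 2 and 9 highest in replicate 3, against 35.1% and 39.4% of all genes, and 3 were at least 2-fold apart, which is 25% against 10.6%. Among genes of adherens and tight junctions 17 of 18 were expressed, led by alpha-catenin (*CTNNA1*) at 371, 435 and 391 FPKM and E-cadherin (*CDH1*) at 243, 246 and 235 FPKM. Here 14 of the 17 compared were highest in replicate 2, against 46.3% of all genes, such as *CLDN7* at 164, 258 and 154 FPKM. At least 2-fold apart were 2, close to the 10.6% of all genes. These were *CLDN1*, at 97.2, 164 and 68.6 FPKM, and *CLDN8*, at 14.2, 15.9 and 3.81 FPKM.

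Transcription factors of the epidermis were expressed at 20 of 26, against 51.4% of all genes, with a median of 17.2 FPKM. *KLF5*, at 383, 313 and 367 FPKM, and *TFAP2A*, at 98.3, 79.6 and 83.9 FPKM, were among the highest besides *TP63*. *KLF4*, at 7.88, 3.3 and 10.7 FPKM, which acts in differentiation, was lowest in replicate 2 and highest in replicate 3, as were most suprabasal genes. *ZNF750*, another factor of differentiation, was at 0.727, 0.339 and 1.13 FPKM, and *TFAP2B* was listed at 0 in every library. Of the 22 factors compared, 3 (13.6%) were at least 2-fold apart, near the 10.6% of all genes, and their median range was 0.57 on the log2 scale, against 0.38.

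Of 39 HOX genes, which mark position along the body axis, 20 were expressed, near the 51.4% of all genes. They were led by *HOXA9* at 76.8, 67.1 and 78.6 FPKM, *HOXC10* at 51.9, 37.8 and 40.3 FPKM, *HOXC13* at 32.1, 30.8 and 23.7 FPKM and *HOXA7* at 24.1, 19.5 and 30.2 FPKM. Of the 22 compared, only *HOXA5*, at 7.17, 10.7 and 4.98 FPKM, was at least 2-fold apart, against 10.6% of all genes, while the median range of 0.44 on the log2 scale was above the 0.38 of all genes. *HOXD13* and *HOXB13*, by contrast with *HOXC13*, stayed under 0.1 FPKM in every library, at 0.00509, 0 and 0 FPKM and 0.0121, 0.0291 and 0.0138 FPKM.

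Of 50 receptor tyrosine kinases, 22 were expressed and 19 stayed under 0.1 FPKM in every library, against 51.4% and 33.2% of all genes. The collagen receptor *DDR1* was the highest at 451, 567 and 414 FPKM, above *EGFR* and the co-receptors *ERBB2*, at 86, 126 and 65.2 FPKM, and *ERBB3*, at 64.3, 80.6 and 69.2 FPKM. Ephrin receptors were well represented, with *EPHB3* at 72.3, 74.8 and 79.9 FPKM and *EPHA1* at 54, 77.5 and 49.7 FPKM. *FGFR3* stood at 47, 76 and 53.7 FPKM and the insulin-like growth factor receptor *IGF1R* at 47.1, 50.9 and 45.6 FPKM, so that *FGFR3* was above *IGF1R* in replicates 2 and 3 and level with it in replicate 1. The endothelial receptors *KDR* and *TEK* were listed at 0 in every library.

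For 15 of the 25 receptor kinases compared, replicate 2 was highest, against 46.3% of all genes, and 6 were at least 2-fold apart between lines, against 10.6%. *FGFR2* was among them, 2.17-fold above the others in replicate 2. It lies on chromosome 10, whose genes had a median of 0.21 above the others in replicate 2 and -0.24 in replicate 3 on the log2 scale, relative to all genes. *MET*, the receptor of hepatocyte growth factor, was at 4.51, 14.4 and 4.82 FPKM, highest in replicate 2. *EPHA4*, at 12.1, 5.04 and 11.7 FPKM, and *ROR2*, at 1.89, 0.181 and 0.473 FPKM, were lowest there.

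**Figure D2:**
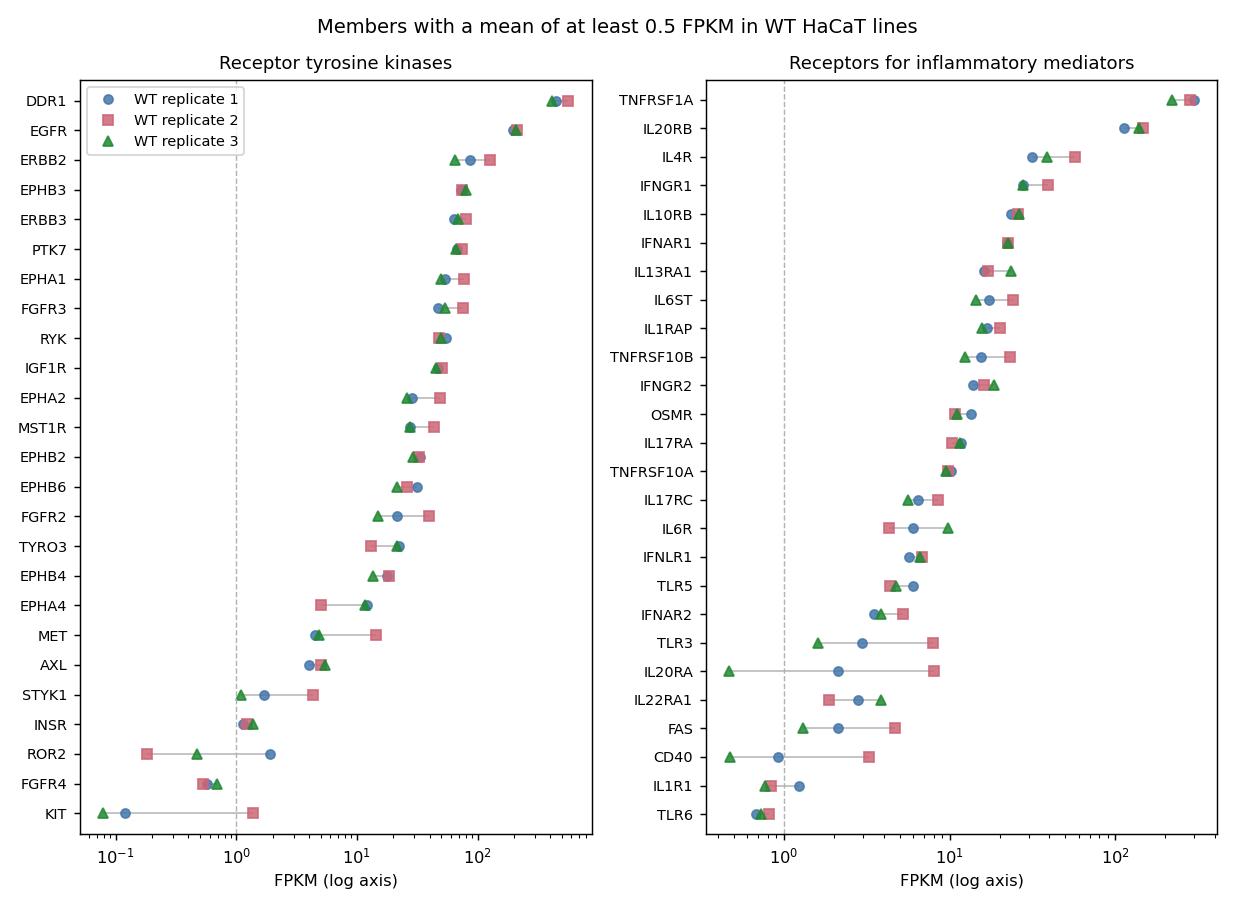
FPKM (log axis) of the receptor tyrosine kinases (left) and the receptors for inflammatory mediators (right) whose mean reached 0.5 FPKM, 1 symbol per WT line, a grey line from the lowest to the highest and a dashed line at 1 FPKM. *EGFR* has its 3 symbols together near 200 FPKM, and *FGFR2* spans 15.0 to 39.7 FPKM.

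Ligands of these receptors were lower than the leading receptors. Of 11 ligands of the EGF receptor family, 7 were expressed, against 51.4% of all genes. They were led by *NRG4* at 30.2, 32.5 and 25 FPKM, *TGFA* at 12.5, 17.5 and 11.9 FPKM, *NRG2* at 10.5, 23.6 and 5.46 FPKM and *NRG1* at 12, 12 and 13.1 FPKM. *EGF* itself stayed at 0.0182, 0.00727 and 0.00689 FPKM, under 0.1 FPKM in every library. Of 22 FGF ligands, only *FGF11*, an FGF homologous factor that stays inside the cell, was expressed in every library, at 14.4, 20.7 and 11.2 FPKM. *FGF7*, the ligand of the epithelial form of FGFR2 that fibroblasts make, was at 0.157, 0.127 and 0.0753 FPKM, and *FGF10*, its relative, was listed at 0 in every library. *FGF1* was at 1.13, 2.17 and 0.75 FPKM, above 1 FPKM in replicates 1 and 2, and without replicate 3 the expressed FGF ligands were 3.

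Receptors for inflammatory mediators were expressed at 22 of 42, near the 51.4% of all genes, with no mediator added to the cultures. The TNF receptor *TNFRSF1A* was highest at 299, 281 and 221 FPKM, followed by *IL20RB*, at 113, 147 and 138 FPKM, *IL4R*, at 31.4, 56.7 and 38.5 FPKM, and the interferon-gamma receptor *IFNGR1*, at 27.8, 39.3 and 27.9 FPKM. The interferon receptor *IFNAR1* was at 22.2, 22.6 and 22.6 FPKM, with the lines within a narrow band. *TLR3*, the sensor of double-stranded RNA, was at 2.96, 7.94 and 1.6 FPKM, highest in replicate 2. The sensors *TLR8* and *TLR9* were listed at 0 in every library, and *TLR4*, the sensor of lipopolysaccharide, was at 0, 0.00929 and 0.00829 FPKM.

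Of the 26 receptors compared, 5 were at least 2-fold apart between lines, against 10.6% of all genes. They were *IL20RA*, at 2.12, 8.06 and 0.468 FPKM, *TLR3*, *CD40*, at 0.923, 3.25 and 0.474 FPKM, *FAS*, at 2.13, 4.71 and 1.31 FPKM, and *IL6R*, at 6.0, 4.29 and 9.72 FPKM. Replicate 2 was highest and replicate 3 lowest for the first 4, and *IL6R* had the reverse order.

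Few cytokines and chemokines were expressed. Of 50 genes, 15 were expressed and 21 stayed under 0.1 FPKM in every library, against 51.4% and 33.2% of all genes. Among the 21 were 7 listed at 0, and the median of the list was 0.157 FPKM. The highest was *IL1RN*, the antagonist of the interleukin-1 receptor, at 148, 238 and 159.8 FPKM, ahead of *IL18* at 94.9, 99.6 and 88 FPKM and parathyroid hormone-related protein (*PTHLH*) at 126, 27.4 and 110.1 FPKM. *PTHLH* was 4.24-fold below the others in replicate 2. The inflammatory cytokines *IL6*, at 0, 0.0346 and 0.0164 FPKM, and *TNF*, at 0, 0.0351 and 0.00832 FPKM, and the interferon-induced chemokine *CXCL10*, listed at 0 in every library, were near or at the detection limit. *IL1B* was at 0.255, 0.0849 and 0.773 FPKM and *CXCL8* at 0.891, 0.406 and 0.385 FPKM, both under 1 FPKM in each library.

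Interferon-stimulated genes (ISGs) were expressed at low to moderate levels, with no interferon added. Of 51 ISGs, 39 were expressed, against 51.4% of all genes, with a median of 7.56 FPKM. The interferon genes *IFNB1* and *IFNL1* were listed at 0 in every library. The membrane proteins *IFITM3*, at 298, 468 and 245 FPKM, and *IFITM2*, at 124, 126 and 126 FPKM, were the highest. The antiviral genes *MX1*, at 0.688, 1.07 and 0.467 FPKM, and *RSAD2*, at 0.222, 1.63 and 0.217 FPKM, stayed under 2 FPKM in every library. *IFI44L* was at 0.019, 0.0531 and 0.0287 FPKM.

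Replicate 2 had the highest and replicate 3 the lowest level of most ISGs. Among the 44 ISGs whose mean reached 0.5 FPKM, 35 were highest in replicate 2 and 30 lowest in replicate 3, against 46.3% and 31.2% of all genes, and 18 were at least 2-fold apart between lines, against 10.6%. Replicate 2 was at least 2-fold above the others for 13 of them (4.05% of all genes), and replicate 3 at least 2-fold below for 10 (2.37% of all genes). The median difference of each line from the others was -0.09, 0.61 and -0.50 on the log2 scale. *IFIT2*, which binds viral RNA, was at 9.53, 27.5 and 4.32 FPKM, 4.03-fold above the others in replicate 2, and *IFITM1* at 37.1, 105 and 27.8 FPKM. *IRF1*, a transcription factor of the interferon response, was at 46, 93.4 and 31 FPKM. Not all members followed, and *USP18*, which dampens the response, was highest in replicate 3, at 1.87, 1.05 and 4.42 FPKM.

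Genes of antigen presentation by MHC class I were in the same order, in a list written after the values had been seen. Of 19 genes, 18 were expressed, 15 of the 18 were highest in replicate 2, against 46.3% of all genes, and 8 were at least 2-fold apart, against 10.6%. Beta-2-microglobulin (*B2M*) was at 516, 1081 and 428 FPKM, and *HLA-B* at 58.7, 225 and 40.7 FPKM, 4.57-fold above the others in replicate 2. HLA genes resemble each other and differ between people, so the split of reads among them is uncertain. The peptide transporter *TAP1*, at 28.3, 37.9 and 27.2 FPKM, and the immunoproteasome subunit *PSMB8*, at 21.7, 39.5 and 24.1 FPKM, are members of both lists.

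Genes of proliferation were expressed in full. All 32 were expressed, with a median of 85.4 FPKM, led by topoisomerase *TOP2A* at 427, 334 and 373 FPKM, cyclin D1 (*CCND1*) at 319, 497 and 316 FPKM, the mitotic kinase *PLK1* at 264, 152 and 259 FPKM and *UBE2C* at 182, 142 and 228 FPKM. Replicate 2 was lowest for 30 of the 32 and replicate 3 highest for 24, against 35.1% and 39.4% of all genes. The median difference of each line from the others was 0.16, -0.56 and 0.38 on the log2 scale, and 6 of the 32 (18.8%) were at least 2-fold apart, against 10.6% of all genes. *MKI67*, the marker of cycling cells, was at 144, 88.1 and 132 FPKM, and *MCM5*, part of the replication helicase, at 65.6, 33.8 and 81 FPKM. The exceptions were *CCND1* and *CCND2*, which were highest in replicate 2, *CCND2* at 9.26, 26.4 and 10.7 FPKM.

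Among inhibitors of the cell cycle and genes of senescence and the response to DNA damage, 19 of 21 were expressed, against 51.4% of all genes. Of the 20 compared, 2 (10%) were at least 2-fold apart between lines, near the 10.6% of all genes. *CDKN1A* (p21) was at 104, 108 and 112 FPKM and *CDKN2A*, which encodes p16 and ARF, at 38.2, 48.5 and 33.7 FPKM. The lines were less than 2-fold apart for both. *CDKN1C* (p57), an imprinted inhibitor, was at 0.492, 9.34 and 0.392 FPKM, above 1 FPKM in replicate 2 alone, and *TERT*, the catalytic subunit of telomerase, stayed at 0.0502, 0.0385 and 0.0207 FPKM.

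Genes of translation and of glycolysis had a median range between lines of 0.40 on the log2 scale in both lists, near the 0.38 of all genes. Of the 79 cytosolic ribosomal protein genes, all were expressed, with a median of 546 FPKM, and 1 was at least 2-fold apart between lines, against 10.6% of all genes. This was *RPL34*, at 60.4, 125 and 74.6 FPKM. They were lowest in replicate 1 for 66 of 79, against 33.7% of all genes, in the line with the largest mitochondrial share, with median differences of -0.30, 0.26 and 0.03 on the log2 scale. With the mitochondrial genes left out of the scaling, the list median of replicate 1 was -0.21, and its median over all genes moved from -0.07 to 0.01. Whether the mitochondrial share bears on the ribosomal levels was not tested. *RPL27*, the reference gene of the study's RT-qPCR, was at 527, 569.7 and 541 FPKM. Of 24 glycolysis genes, 21 were expressed and 2 of the 21 compared (9.52%) at least 2-fold apart, near the share of all genes, and the main glucose transporter *SLC2A1* was at 229.5, 229 and 270.0 FPKM. Alpha-tubulin *TUBA1B*, by contrast, was at 974, 467 and 997 FPKM, 2.11-fold below the others in replicate 2.

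S100 proteins, small calcium-binding proteins of the epidermis, were expressed at 15 of 17, against 51.4% of all genes. Their median range between lines was 0.58 on the log2 scale, against 0.38 for all genes. *S100A11* was at 1838, 1798 and 2000.3 FPKM and *S100A2* at 992, 985 and 916 FPKM. The 4 members at least 2-fold apart, of 16 compared (25% against 10.6% of all genes), were *S100A7* (psoriasin), *S100A8* and *S100A9* (calprotectin) and *S100P*, and all 4 were highest in replicate 2. *S100A7* was at 38, 462 and 37.1 FPKM, 12.2-fold above the others, and *S100A9* at 22.9, 127 and 29.5 FPKM. *S100A8* was at 9.34, 31.5 and 21.1 FPKM, with replicate 3 between the others.

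Of 29 extracellular matrix genes, 21 were expressed, against 51.4% of all genes. They were led by *COL17A1*, the laminin chains *LAMA5*, at 398, 568 and 399 FPKM, and *LAMB3*, at 281, 384 and 245 FPKM, and *TGFBI* at 287, 263 and 415 FPKM. Fibronectin (*FN1*) was at 1.28, 0.744 and 10.8 FPKM and *COL5A1* at 1.37, 0.289 and 8.17 FPKM, with replicate 3 highest for both. *LAMB1*, at 2.08, 11.4 and 0.58 FPKM, and *SPARC*, at 2.48, 22.4 and 11.1 FPKM, were highest in replicate 2. Of the 25 compared, 9 were at least 2-fold apart, against 10.6% of all genes.

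Most markers of other cell types of the skin stayed under 0.1 FPKM in every library, except in the Merkel cell list. Of 14 fibroblast markers 10 stayed under 0.1 FPKM in every library, against 33.2% of all genes, with *COL3A1* listed at 0 and *PDGFRA* at 0, 0.00813 and 0 FPKM. Of 19 immune cell markers 10 did so, and the pan-leukocyte gene *PTPRC* was at 0.109, 0.0604 and 0.153 FPKM. Of 10 melanocyte markers 7 did so, and *TYR*, *MLANA* and *SOX10* were listed at 0 in every library. Of 10 endothelial markers 6 stayed under 0.1 FPKM in every library, and of 9 Merkel cell markers 4. The Merkel cell factor *ATOH1* and the endothelial gene *CLDN5* were also listed at 0. Among markers whose mean reached 0.5 FPKM, 3 of 3 fibroblast, 3 of 3 melanocyte and 3 of 3 immune markers were highest in replicate 2. So were 1 of 2 endothelial and 1 of 4 Merkel cell markers, against 46.3% of all genes. These counts hold few genes, and the filter took the mean of the same 3 libraries. A marker near silent elsewhere could thus enter through the line where it was high, so no trait of a line is read from these counts.

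A few members of these lists were nevertheless expressed. *FBLN1*, a matrix protein, was at 90.5, 115 and 76.3 FPKM, *COL1A1* at 15, 16.7 and 7.66 FPKM, *VWF*, the von Willebrand factor, at 18, 19.2 and 27.1 FPKM, and the lysosomal protein *CD68* at 11.6, 20.4 and 11.4 FPKM. Decorin (*DCN*), a matrix proteoglycan of fibroblasts, was at 0.201, 15.5 and 0.249 FPKM, and *CDH5*, the cadherin of endothelium, at 0.126, 4.92 and 0.0201 FPKM, both above 1 FPKM in replicate 2 alone. *VIM*, the intermediate filament protein of mesenchymal cells, was at 0, 0.0108 and 0.0306 FPKM. In replicate 2, where *DCN* and lumican (*LUM*, at 0.0166, 0.903 and 0 FPKM) were highest, *COL3A1*, *POSTN* and *DPT* were listed at 0. Whether other cells add to these levels was not tested.

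**Figure D3:**
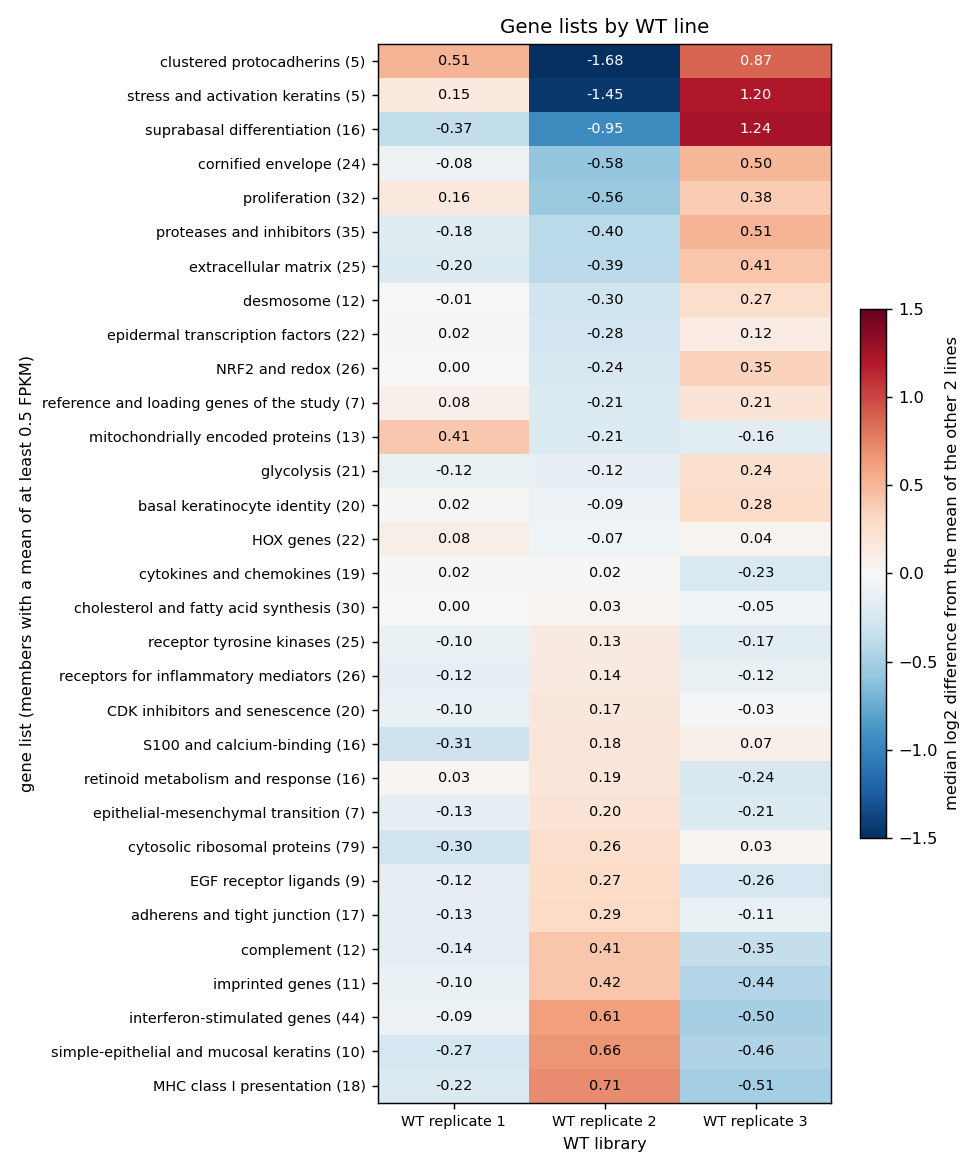
Median log2 difference of each WT line from the mean of the other 2 (color and number) for 31 gene lists, over the members whose mean reached 0.5 FPKM (their number in parentheses), sorted by the value of replicate 2. Lists of differentiation, stress keratins and proliferation are below 0 in replicate 2 and above 0 in replicate 3, and lists of MHC class I, ISGs and simple-epithelial keratins show the opposite signs.

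The genes with the largest differences between lines belonged in part to none of these lists. Highest in replicate 2 against the others was *GABRP*, a subunit of the GABA-A receptor, at 1.88, 40.4 and 0.142 FPKM. It was followed by *VGLL1*, a cofactor of TEAD transcription factors, at 2.11, 73.8 and 1.51 FPKM, and *SATB1*, a chromatin organizer, at 0.0838, 16.3 and 0.182 FPKM. *SELENBP1*, at 2.72, 39.6 and 0.723 FPKM, and the lipoxygenase *ALOX5*, at 0.355, 14.3 and 0.142 FPKM, were also among the 10 highest. Each of these 5 genes was under 2 FPKM in at least 1 of the other lines.

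Lowest in replicate 2 was *FABP5*, the epidermal fatty acid-binding protein, at 98.8, 2.85 and 142 FPKM, 35.5-fold below the others. *SEPTIN5*, at 14.3, 0.464 and 38.4 FPKM, the keratin *KRT76*, at 2.87, 0.216 and 15.8 FPKM, the gap junction protein *GJA1* (connexin 43), at 51.5, 5.89 and 66.7 FPKM, and *ALDH1A1*, an enzyme of retinoic acid synthesis, at 102, 16 and 204 FPKM, shared this order. For each of these genes replicate 3 was highest and replicate 1 in the middle.

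Highest in replicate 3 were *SBSN*, *KRT76* and *SEPTIN5*, and lowest there were *FBP1*, an enzyme of gluconeogenesis, at 16.7, 56.4 and 1.17 FPKM, and *TRIM31*, a ubiquitin ligase, at 107, 163 and 8.65 FPKM. *TCF7L1*, a factor of the Wnt pathway, was at 7.78, 19.5 and 0.874 FPKM, with replicate 2 highest. Replicate 1 had fewer such genes. The integrin *ITGA4*, at 5.29, 0.242 and 1.7 FPKM, and the homeobox gene *EN1*, at 19, 2.1 and 12.9 FPKM, were highest there, and the matrix protein *NPNT* (nephronectin), at 0.805, 16 and 4.85 FPKM, was lowest. *ARL2-SNX15*, a readthrough transcript of neighbouring genes whose reads can be assigned to either, was formally highest in replicate 1, at 6.55 FPKM.

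At the other extreme, the 20 genes with the smallest range were taken among the 2344 whose mean reached 50 FPKM, and their lines lay within 1.03-fold of each other. They included *COPS2*, a subunit of the COP9 signalosome, at 67.4, 67.9 and 67.6 FPKM, the serine protease *PRSS8*, at 75.2, 76.2 and 76.1 FPKM, the mitochondrial elongation factor *TUFM*, at 346, 347 and 342 FPKM, and *EWSR1*, an RNA-binding protein, at 169.8, 169.7 and 173 FPKM. These genes were picked for their small range, which is a description.

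The chromosomes did not take part equally in the differences. For 15 of 23 chromosomes the median difference of a line from the others, relative to all genes, stayed under 0.1 on the log2 scale in every line, and for 5 it reached 0.2. The 118 genes compared on chromosome 21 were higher in replicate 3 by a median of 0.41 and lower in replicate 2, with a median of -0.31. In replicate 3, 85.6% of them had a difference above that line's median over all genes. The 752 genes compared on chromosome 17 were lower in replicate 3 by a median of -0.30, with 86.4% of them below that line's median over all genes. Chromosome 11 was higher in replicate 2 (0.29, 720 genes), chromosome 9 was lower there (-0.23, 495 genes) and chromosome 10 was lower in replicate 3 (-0.24, 466 genes). The number of DNA copies was not measured in these libraries.

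Several of the genes named lie on these chromosomes. *KRT13*, *KRT15*, *KRT10* and *KRT14* lie on chromosome 17, and *KRT13* was 1.9-fold and *KRT15* 2.18-fold below the others in replicate 3, more than the median of the chromosome, while *KRT10* was 2.7-fold above. *KRT1*, *KRT4* and *KRT6A* lie on chromosome 12, with medians of 0.02, -0.05 and 0.02. When the chromosome medians, with the overall shift of each line, were removed, 1193 genes were at least 2-fold apart, against 1298. Each of these medians was well under a 2-fold difference, so their removal could change this count little. A link between these genes and their chromosomes was not tested.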

How the data were processed

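RNA of 3 WT HaCaT lines, 1 library per line, was sequenced after TruSeq stranded mRNA preparation. Per the labels and the study's methods, the authors trimmed the reads with fastp 0.20.0 and pseudoaligned them with kallisto 0.46.1 to GRCh38.p13. The deposited values are FPKM per gene. How the FPKM were calculated is not given in the sources used here. The tables held 21493 genes. The 18 Y copies of pseudoautosomal genes repeated their X copies and were left out, which left 21475, of which 21400 had a symbol and position in GENCODE 44. Values were read with pandas 2.3.3 and numpy 2.4.6 in Python 3.11.15.

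Depth came from the steps between low values of genes with a single transcript. Of 988, 965 and 923 such values, 62.7%, 63.4% and 63.9% were whole fragments within 0.02, so whole reads were not recovered and no count test was run. Lines were compared on log2(FPKM + 0.5) over 12218 genes whose mean reached 0.5 FPKM, at a 2-fold threshold. With 1 library per line there was no test, and p-values are not given. The scripts were tested on simulated data. Alternatives were other pseudocounts, filters, scalings and thresholds, and leaving out each line. Floors cover counting error only.

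The libraries described, the gene lists and the tests were chosen with earlier results of these data known. Genes were named if they were among the 5 markers, the 20 highest nuclear genes, the mitochondrial genes, the 4 highest, the 3 most variable or the defining silent members of a list, the 10 highest or lowest of each line, or the 20 with the smallest range. Other genes named, and the MHC class I, complement and retinoid lists, were chosen after their values were seen. Some genes that this rule names are not reported here. The 3 KO libraries were not used.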

Additional observations from a re-analysis of the deposited data

How the results depend on the processing

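With 1 library per line and no test, the counts describe these libraries. Without a line, the count of genes at least 2-fold apart ranged from 261 (without replicate 2) to 1183 (without replicate 1), with 643 without replicate 3, against 1298 for the 3 lines, so most of it rests on replicate 2. At a 1.5-fold threshold the count over the 3 lines was 3419, and 1945, 904 and 2905 for replicates 1 and 2, 1 and 3, and 2 and 3. At 4-fold these counts were 282, 127, 32 and 252. For replicates 1 and 3 a pseudocount of 0.1 gave 415 and a minimum mean of 2 FPKM gave 162, against 257. Under TPM, median-of-ratios and quantile scaling and scaling without the mitochondrial genes, the counts for each pair stayed within 1.5 times the main count. Replicate 1 had the middle value for 75.6% to 79.4% of the genes at least 2-fold apart under these 4 settings. Some short lists changed by 1 or 2 expressed members. FGF ligands had 2 after TPM scaling and 1 to 3 when a line was left out, cancer-testis genes 0 to 1, protocadherins 2 to 4 and Merkel cell markers 1 to 2. Melanocyte and Merkel cell markers each had 2 after TPM scaling. The medians of the suprabasal, stress keratin, mucosal keratin, ISG, MHC class I and proliferation lists kept their sign in replicates 2 and 3 under each of the 7 or 8 alternatives run, chosen after the data had been seen. The ribosomal protein median of replicate 3 changed sign under 1 of 8, and that of the mitochondrial genes in replicate 3 reached 0 under 1. No paired analysis was possible because the 3 libraries form 1 group. The lower a gene lies under 1 FPKM, the fewer fragments its differences rest on. At 0.5 FPKM a gene of 1 kb stood for 40.7, 33.9 and 35.8 fragments.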

Other observations

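Several gene families outside the keratinocyte programs were either silent or expressed in few members. Of 29 cancer-testis genes, which the germ line expresses and some tumors switch on, 28 stayed under 0.1 FPKM in every library and 16 were listed at 0, among them *PRAME*, *MAGEA3* and *CTAG1B*. The exception was *DDX43*, a helicase, at 1.5, 2.14 and 0.689 FPKM in replicates 1, 2 and 3. Of 53 clustered protocadherins, cell adhesion proteins known from neurons, 2 were expressed, *PCDHGC3* at 45.6, 32.6 and 53.6 FPKM and *PCDHGB5* at 6.71, 7.22 and 6.98 FPKM. *PCDHGA11*, at 2.37, 0.221 and 2.13 FPKM, *PCDHGB4*, at 1.31, 0.0358 and 1.63 FPKM, and *PCDHGA12*, at 0.918, 0.0159 and 1.42 FPKM, were lowest in replicate 2, but genes of this cluster share exons, so the split of reads among them is uncertain. Of 21 imprinted genes in the tables, 9 were expressed, against 51.4% of all genes, led by *GNAS* at 402, 499 and 372 FPKM. Of the 11 compared, 5 were at least 2-fold apart between lines, against 10.6% of all genes, with *PEG10* at 6.71, 9.21 and 1.24 FPKM, *MEST* at 0.352, 3.05 and 0.60 FPKM and *SGCE* at 7.9, 8.99 and 2.6 FPKM besides *CDKN1C* among them. *IGF2*, at 0.0564, 0.026 and 0.123 FPKM, and *PEG3*, listed at 0, were not expressed.

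The lines also differed in genes that handle retinoids, the vitamin A derivatives that restrain cornification, and in complement, in lists written after the values had been seen. *CRABP2*, the binding protein of retinoic acid, was at 513, 499.6 and 487 FPKM and the receptor *RARG* at 188, 216 and 201 FPKM, alike between lines. Of the 3 enzymes that make retinoic acid, *ALDH1A1* was at 102, 16 and 204 FPKM, *ALDH1A3* at 224, 717 and 132 FPKM and *ALDH1A2* at 0.20, 0.518 and 0.108 FPKM. *ALDH1A1* was thus lowest and *ALDH1A3* highest in replicate 2. Of the 16 retinoid genes compared, 9 were at least 2-fold apart between lines, against 10.6% of all genes. Of 24 complement genes, 10 were expressed, against 51.4% of all genes, and 7 were listed at 0 in every library. At least 2-fold apart were 4 of the 12 compared, against 10.6% of all genes. Complement *C3* was at 10.0, 108 and 6.36 FPKM, 12.7-fold above the others in replicate 2, and factor B (*CFB*) at 6.15, 22.1 and 4.35 FPKM, while the regulators *CD59*, at 60.1, 75.6 and 54.3 FPKM, and *CD46*, at 65.6, 96.5 and 55.3 FPKM, differed less. In the NRF2 and redox list all 26 genes were expressed, and 8 (30.8%) were at least 2-fold apart, against 10.6% of all genes, such as *ALDH3A1* at 88.4, 124 and 23.2 FPKM, lowest in replicate 3, thioredoxin (*TXN*) at 695, 377 and 1047 FPKM and *NQO1* at 98.3, 55.8 and 159 FPKM, both highest there. Of 30 genes of cholesterol and fatty acid synthesis, 29 were expressed and 3 (10%) at least 2-fold apart, near the share of all genes, and the regulator *SREBF1* was the highest at 786, 859 and 400.5 FPKM. In the list of epithelial-mesenchymal transition 5 of 14 genes were expressed, against 51.4% of all genes. Among its members, *ZEB1* was at 0.0324, 0.0166 and 0.0157 FPKM and *SNAI2* at 16.9, 11.6 and 18.3 FPKM. Of 26 long non-coding RNAs written for this description, 2 are in the tables, *TINCR* at 115, 103 and 136 FPKM and *TUG1* at 41.6, 42.5 and 43.8 FPKM.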
